A study of Homo sapiens with 16 samples.

Results

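The 2 arrays of HT1080 cells given cisplatin for 6 h were set against the 2 arrays of control cells, 4 of the 16 arrays of the series, across 8723 of 24350 probes named by GI sequence numbers. A probe entered the set when its detection score, which runs from 0 to 1 and compares a probe with background, was at least 0.99 on both arrays of at least 1 of these groups. HT1080 is a human fibrosarcoma cell line, and all arrays came from this 1 line. The cisplatin group comprised 2 arrays of cells kept for 6 h in complete medium with 25 µM cisplatin, and the control group 2 arrays of cells described only as controls, with no time in the labels. Groups used for further comparison were cisplatin at 25 µM for 3 h and 12 h and A0, a thioxotriazole copper(II) complex, at 25 µM for 6 h, with 2 arrays each. Whether the arrays of a group represent separate cultures is not stated in the labels, so the p-values rest on a spread between samples that may be technical. With no time given for the controls, 6 h of drug cannot be told apart from handling or time in culture. In RNA of a whole culture, fewer cells of one kind and less RNA per cell cannot be told apart either.

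Cisplatin is a platinum drug that forms bonds with purine bases and crosslinks DNA. Such lesions block replication and RNA polymerase, and cells answer with checkpoint signalling, with DNA repair and with the p53 programme, in which the transcription factor p53 raises genes of arrest, repair and cell death. HT1080 cells are known to carry an activated NRAS gene and an intact p53 gene. The files give each probe only a GI number, and 0 of the probe IDs occurred in the RefSeq gene table used for naming, so the probes stand here by ID and by group and no gene is named. For the same reason the fibrosarcoma label could not be set against its marker genes, and 0 of the 579 entries of 20 gene lists of stress, repair, cell cycle and related pathways could be matched.

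The 4 arrays had similar signal. The detected probes numbered 8719 and 8835 on the cisplatin 6 h arrays and 8581 and 9037 on the control arrays, and the median signal was 110.4 and 108.6 intensity units with cisplatin and 118.8 and 99.5 in control. Each probe was read from a median of 41 to 41.5 beads per array. Across the 8723 probes, replicates correlated at 0.979 with cisplatin and at 0.983 in control. The SD of the log2 difference between replicates was 0.359 with cisplatin and 0.325 in control. Between a cisplatin and a control array it was larger in all 4 pairings, at 0.547 to 0.584. A difference of more than 1 on the log2 scale (2-fold) was found for 96 probes between the cisplatin replicates, for 45 between the control replicates, and for 603 to 738 between a cisplatin and a control array. The cisplatin replicates differed by 3.11 on the log2 scale at their widest, and the control replicates by 1.49.

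After 6 h of cisplatin, 251 of the 8723 probes were called higher and 221 lower, relative to control. A call required a Benjamini-Hochberg adjusted p under 0.05 in limma's moderated test, fitted over all 16 arrays and adjusted over the 9293 probes that were detected on both arrays of any group of the series. Over those 9293 probes the share called was 5.09%, with 2.71% higher and 2.38% lower, against 5.41% of the 8723, which make up 93.9% of the tested probes. The median log2 fold change was -0.01 over the 8723 probes and also -0.01 over all tested probes. An unadjusted p under 0.05 was reached by 1905 tested probes, 939 higher and 966 lower. The balance between the directions depended on scaling: with each array centred on its 75th percentile in place of quantile normalisation, 174 tested probes were called higher and 298 lower, against 252 and 221.

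The called changes were moderate in size where they could be measured in both groups. Among the 196 probes called higher and detected on all 4 arrays the median fold was 2.16, with quartiles of 1.89 and 2.48 and a range from 1.59 to 7.87. Among the 154 probes called lower and detected on all 4 arrays the median fold was 2.11, with the same quartiles of 1.89 and 2.48 and a range from 1.63 to 6.50. A change of at least 2-fold was measured for 128 of the 196 and for 96 of the 154, and one of at least 4-fold for 9 and 5. The cisplatin and control arrays did not overlap for any of the 472 called probes, where non-overlap was found for 55.7% of all tested probes. The gap between the closest cisplatin and control array had a median of 0.90 on the log2 scale among the called probes and was at least 0.38. For 452 of the 472 this gap was wider than the difference between replicates of either group. The test that called the probes favours such gaps, and the share over all tested probes was not counted, so this count is a description. Of the 472, 122 were not detected on all 4 arrays, and their gap follows in part from the rule for membership.

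**Figure D1:**
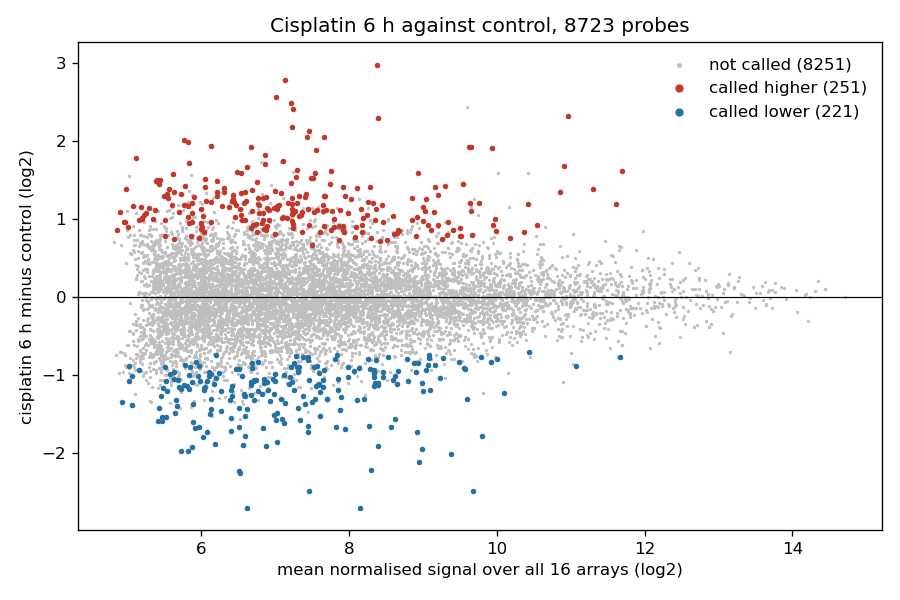
Each point is 1 of the 8723 probes. The horizontal axis gives the mean normalised log2 signal over all 16 arrays and the vertical axis the log2 difference of cisplatin 6 h minus control. Red points (251) were called higher, blue points (221) lower and grey points (8251) neither. The called probes lie on both sides at all but the brightest signals, and the scatter of the grey points narrows to the right.

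The share of called probes varied with signal strength. When the 8723 probes were divided into 5 equal bins by their mean over all 16 arrays, calls were made for 5.90%, 6.02%, 6.76%, 5.28% and 3.09% from the dimmest to the brightest bin. The median standard error of the log2 fold change was 0.31, 0.28, 0.25, 0.23 and 0.21 in these bins. The median absolute log2 change also fell along the bins, from 0.39 in the dimmest to 0.20 in the brightest. The brightest bin had the smallest error and the smallest changes, with 34 probes called higher and 20 lower.

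The 4 probes described in full were the largest called risers and the largest called fallers among probes detected on all 4 arrays of the cisplatin 6 h and control groups. Each probe's own arrays are compared below, and no probe's level is set against another's. GI_7019524-S had the largest rise among them. Its signal was 700.4 and 962.2 intensity units on the cisplatin 6 h arrays, against 200.0 and 185.2 in control. Both cisplatin arrays stood far above both controls. On the normalised log2 scale it averaged 9.50 ± 0.28 with cisplatin and 6.53 ± 0.06 in control (SD, n = 2 each), a difference of 2.98 or 7.87-fold (SE 0.32, limma adjusted p = 0.000531).

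GI_22035666-S had the second largest rise among the probes detected on all 4 arrays. Its signal was 414.9 and 675.8 intensity units with cisplatin, against 193.5 and 158.1 in control. The groups did not overlap, and the cisplatin arrays lay further apart than the controls. On the log2 scale it averaged 8.77 ± 0.52 with cisplatin and 6.29 ± 0.15 in control (SD, n = 2 each), a difference of 2.49 or 5.60-fold (SE 0.31, limma adjusted p = 0.00122).

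GI_31543542-S had the largest fall among the probes detected on all 4 arrays. Its signal was 183.2 and 187.5 intensity units with cisplatin, against 860.6 and 850.3 in control. The replicates of both groups lay close together, so the groups were widely separated. On the log2 scale it averaged 6.72 ± 0.02 with cisplatin and 9.42 ± 0.08 in control (SD, n = 2 each). It fell by 2.70 on the log2 scale, or 6.50-fold (SE 0.35, limma adjusted p = 0.00142).

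GI_28610153-S had the next largest fall among the probes detected on all 4 arrays. Its signal was 521.7 and 297.0 intensity units on the cisplatin arrays, against 1824.1 and 2140.1 in control. Both cisplatin arrays lay below both controls but differed from each other. On the log2 scale it averaged 8.28 ± 0.79 with cisplatin and 10.77 ± 0.25 in control (SD, n = 2 each), a fall of 5.61-fold (log2 difference -2.49, SE 0.42, limma adjusted p = 0.00725). This call was lost without cisplatin 6 h replicate 2 (adjusted p = 0.0805) and without control replicate 2 (adjusted p = 0.0811). The calls of the other 3 probes were kept under all 13 alternatives, and for GI_28610153-S under 11 of 13.

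**Figure D2:**
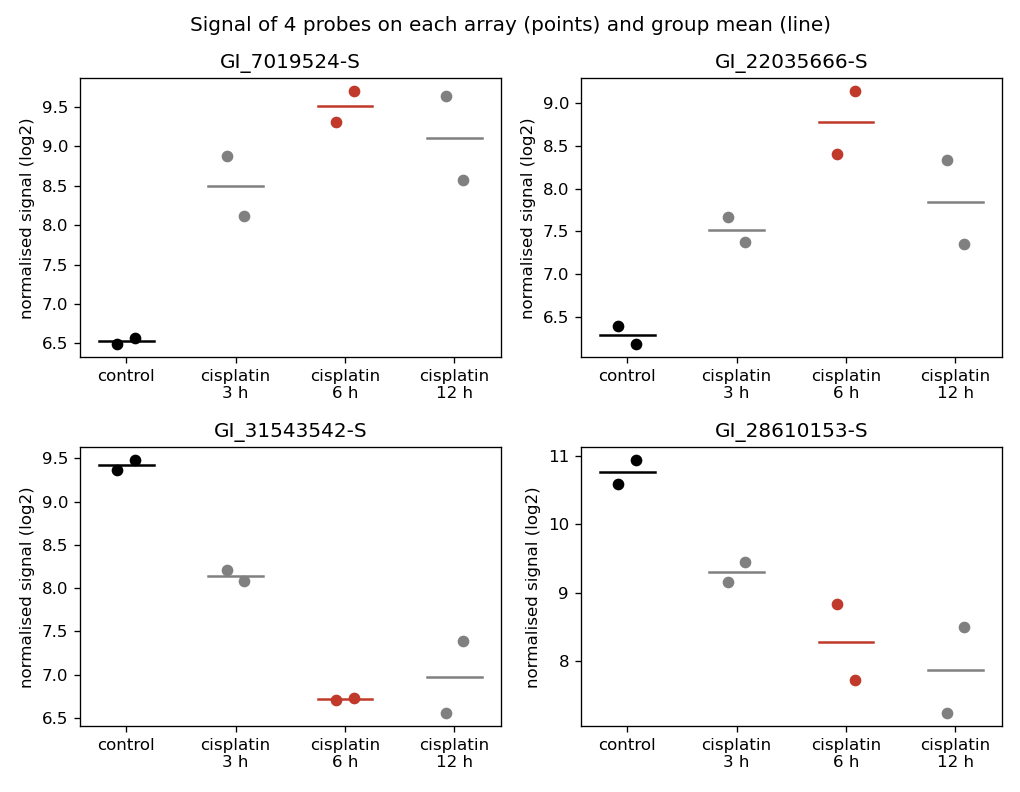
Normalised log2 signal of the 4 probes on every control and cisplatin array. Points are single arrays, lines are the group means of 2 arrays, and red marks cisplatin 6 h. The upper 2 probes are the risers and the lower 2 the fallers. In each panel the 6 h arrays are clear of the controls, as the rule that chose the probes requires. The 3 h mean lies between the 6 h and control means, which that choice favours.

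The 8723 probes fell into classes by where they were detected, and these classes bear on how a change can be read. A total of 7617 (87.3%) were detected on all 4 arrays. Of these, 196 were called higher and 154 lower (4.59%), with a median log2 change of -0.0025 over the whole class. The other 1106 probes were in the set through 1 group alone, so their direction follows largely from the rule. Of 284 probes detected on both cisplatin arrays and 1 control array, 16 were called higher, and of 406 detected on both control arrays and 1 cisplatin array, 29 were called lower.

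Detection differed fully between the groups for 416 probes. There were 175 probes detected on both cisplatin arrays and on neither control array, of which 39 were called higher. Another 241 were detected on both control arrays and on neither cisplatin array, of which 38 were called lower. For a probe that neither array of a group detected, only a bound on the fold can be given. It sets the mean of the brighter group against a floor on each dim array, which is the dimmest signal still detected there or, if brighter, the signal of the probe itself. By that bound the 39 probes were at least 1.63-fold higher at the median, and 11 of them were at least 2-fold higher. The largest of these bounds was at least 4.93-fold higher, for a probe with measured log2 means of 7.71 with cisplatin and 5.14 in control (limma adjusted p = 0.0211 for the measured difference, while the bound itself has no test). The 38 probes were at least 1.75-fold lower at the median, and 11 were at least 2-fold lower. The largest bound there was at least 4.49-fold lower, with measured means of 4.87 with cisplatin and 7.58 in control (limma adjusted p = 7.22e-05 for the measured difference, again with no test of the bound). Both of these probes are in the set only through the group where they are bright, so their p-values are a description.

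**Figure D3:**
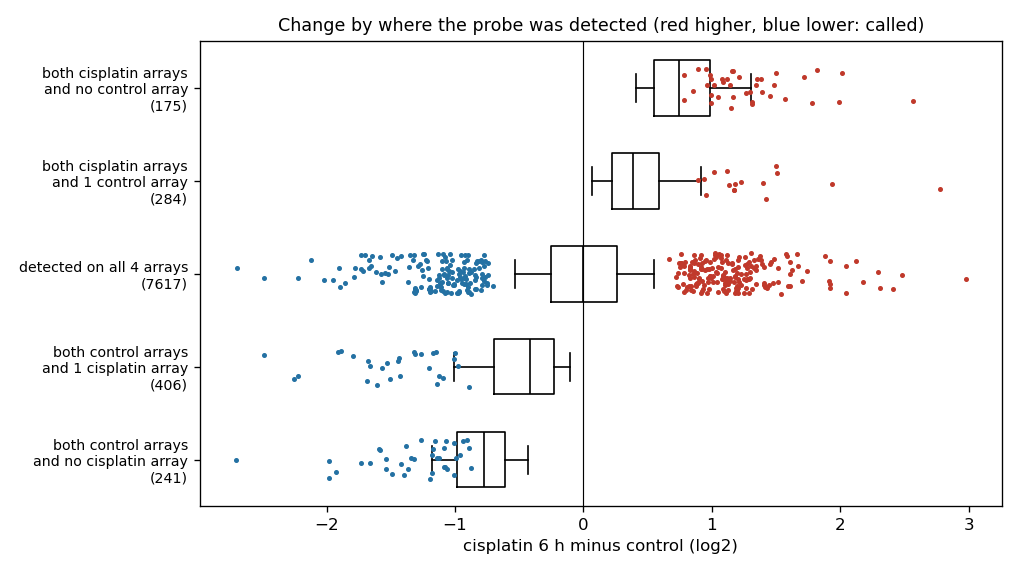
Log2 difference of cisplatin 6 h minus control by the arrays on which a probe was detected, with the number of probes in each class. Boxes show the median and quartiles and whiskers the 10th and 90th percentiles. Dots are the called probes, red higher and blue lower. The 7617 probes detected on all 4 arrays centre on 0, while the classes detected in full in 1 group are displaced toward that group, as the rule for membership makes them.

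Near the detection limit the members and the probes left out had similar signals. The 304 probes just inside the limit, with a score of 0.991 to 0.992 in the group that admitted them, had median log2 signals of 5.41 with cisplatin and 5.56 in control. The 165 probes just outside it, with a score of 0.987 to 0.9897, had median log2 signals of 5.30 with cisplatin and 5.43 in control.

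The suffix of a probe name tells, by Illumina's convention, whether a gene has a single known transcript (S), or whether the probe reads 1 of several variants (I) or all variants (A). Probes with S made up 7204 of the 8723, with 226 called higher and 185 lower (5.71%). Probes with A contributed 1038, with 17 called higher and 28 lower (4.34%), and probes with I contributed 481, with 8 in each direction (3.33%). The shares stand beside the 5.09% called of all tested probes, and their differences were not tested. The I probes were also detected least often: 16.5% of the 2914 on the array were in the set, against 47.6% of 2182 A probes and 37.4% of 19254 S probes.

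For 63 sequence records, both an A and an I probe were in the set, which gives 2 readings of 1 gene on the same arrays. In 62 of these records neither probe was called. In the remaining record the I probe was called and the A probe was not, with the same direction of change in both. The log2 changes of the A and I probes differed with an SD of 0.383 and a median absolute difference of 0.23. Their Pearson correlation across the 63 records was 0.445. The points share arrays and samples, and the value is a description.

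The levels of the called probes were then followed over the cisplatin course. The probes were chosen by their 6 h and control values, so the 6 h levels are a description, and the values at 3 h, 6 h and 12 h below are all set against the same 2 control arrays. The 196 probes called higher and detected on all 4 arrays had median log2 signals of 6.98 in control, 7.69 at 3 h, 8.17 at 6 h and 7.99 at 12 h. Their median difference from control was 0.63 at 3 h (quartiles 0.41 and 0.90), 1.11 at 6 h (0.92 and 1.31) and 0.89 at 12 h (0.70 and 1.25). The 154 probes called lower had median log2 signals of 8.26 in control, 7.63 at 3 h, 7.04 at 6 h and 7.03 at 12 h. Their median difference from control was -0.57 at 3 h (quartiles -0.77 and -0.39), -1.08 at 6 h (-1.31 and -0.92) and -1.19 at 12 h (-1.70 and -0.85). In both lists the 3 h median lay between those of control and 6 h, a place that choosing the lists by those groups favours.

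**Figure D4:**
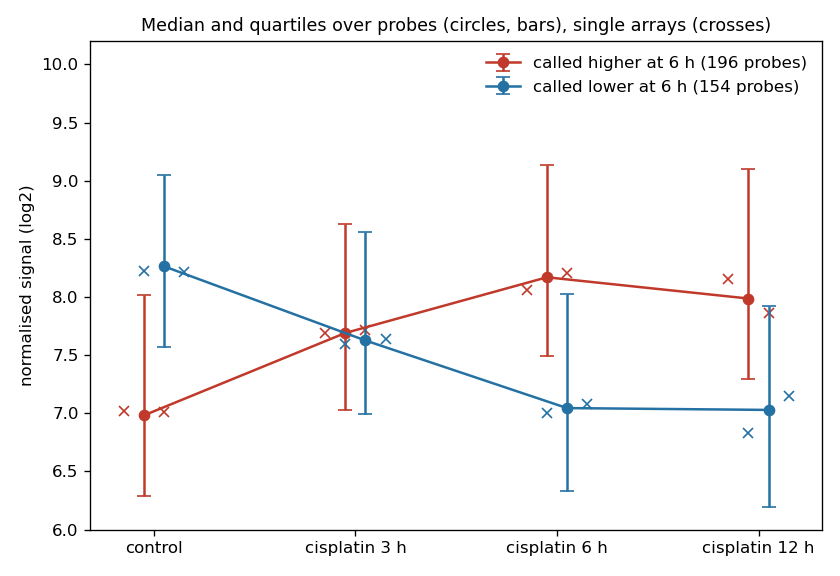
Normalised log2 signal of the probes called at 6 h and detected on all 4 arrays, in control and after 3, 6 and 12 h of cisplatin. Circles are medians over 196 (red, called higher) or 154 probes (blue, called lower), bars span the quartiles over probes and crosses are the medians on the single arrays. The red medians run 6.98, 7.69, 8.17 and 7.99 and the blue ones 8.26, 7.63, 7.04 and 7.03.

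Direct tests between cisplatin times, which do not use the control arrays in the contrast, gave fewer calls. The replicates at 3 h and at 12 h were less alike than those at 6 h. Their log2 differences over the 8723 probes had an SD of 0.477 and 0.482, against 0.359 at 6 h. Cisplatin 6 h against cisplatin 3 h gave 0 probes higher and 9 lower in limma's test (0.0968% of the tested probes), all 9 of them among the 8723. At an unadjusted p under 0.05 there were 438 probes higher and 463 lower, and with no background correction 10 were called higher and 17 lower. Of the 9 probes, 4 were detected on all arrays of both times and fell by a median of 3.07-fold, over a range from 2.23-fold to 4.25-fold. Another 3 were detected on 1 of the 6 h arrays and 2 on neither, so their 6 h signal is at or near background. Over all 9 the median log2 signal was 7.58 in control, 7.58 at 3 h, 5.62 at 6 h and 5.62 at 12 h. The 9 were chosen by their 3 h and 6 h values, so the fall between these times is a description. This small count changed with single arrays. Leaving out a 6 h array gave 6 (replicate 1) or 0 (replicate 2, with 436 probes at an unadjusted p under 0.05), and leaving out a 3 h array gave 1 (replicate 1) or 18 (replicate 2).

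Cisplatin 12 h against cisplatin 6 h gave 69 calls (0.742% of those tested), 13 probes higher (0.14%) and 56 lower (0.603%). Of these, 9 of the higher and all 56 of the lower were among the 8723. Of the 56 probes, 32 were detected on all arrays of both times and fell by a median of 2.36-fold, with a range from 1.78-fold to 3.30-fold. Another 16 were detected on 1 of the 12 h arrays and 8 on neither. Over all 56 the median log2 signal was 7.87 in control, 7.87 at 3 h, 7.43 at 6 h and 6.13 at 12 h. The 9 probes that rose had median log2 signals of 7.43 in control, 7.55 at 3 h, 7.84 at 6 h and 8.85 at 12 h. Of these 9, 6 were detected on all arrays of both times and 3 on neither 6 h array. Both lists were chosen by their 6 h and 12 h values, so the changes between these times are a description. Leaving out a 12 h array reduced the 69 calls to 15 (replicate 1) or 30 (replicate 2), and leaving out a 6 h array to 3 (replicate 1) or 20 (replicate 2).

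None of the 4 probes described above passed limma's test between 6 h and 3 h or between 12 h and 6 h, in which the 6 h arrays that chose them take part. GI_7019524-S stood at 8.49 ± 0.54, 9.50 ± 0.28 and 9.10 ± 0.75 on the log2 scale at 3, 6 and 12 h (SD, n = 2 each). It was 1.01 higher at 6 h than at 3 h (SE 0.32, limma adjusted p = 0.267). GI_22035666-S stood at 7.52 ± 0.21, 8.77 ± 0.52 and 7.85 ± 0.69 at these times, so its highest mean was at 6 h. Its differences were 1.25 between 6 h and 3 h (limma adjusted p = 0.185) and -0.93 between 12 h and 6 h (adjusted p = 0.233). GI_31543542-S stood at 8.14 ± 0.09, 6.72 ± 0.02 and 6.97 ± 0.60, and GI_28610153-S at 9.30 ± 0.20, 8.28 ± 0.79 and 7.86 ± 0.89. For GI_28610153-S the mean was lowest at 12 h, and the difference of 12 h minus 3 h was -1.44 on the log2 scale (limma adjusted p = 0.0485). That difference was 0.61 for GI_7019524-S, 0.33 for GI_22035666-S and -1.17 for GI_31543542-S (limma adjusted p = 0.254, 0.560 and 0.0527). The share of all tested probes called between 12 h and 3 h is not given here.

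At 6 h, cisplatin and A0, both at 25 µM, were compared directly. In cells given cisplatin, 450 tested probes were higher than in cells given A0 (4.84%) and 306 lower (3.29%), together 8.14%. Centred on the 75th percentile, 322 were higher and 304 lower. The A0 replicates were less alike than those of cisplatin. Their log2 differences over the 8723 probes had an SD of 0.501, against 0.359. Fitted on the arrays of these 2 groups alone, the calls numbered 207. Of the probes as reported, 448 and 263 were among the 8723. Leaving out a cisplatin array reduced the 756 calls to 380 (replicate 1) or 178 (replicate 2), and leaving out an A0 array to 425 (replicate 1) or 567 (replicate 2). The lists were chosen by these 4 drug arrays, and the control arrays took no part in the contrast. The 448 probes had median log2 signals of 7.66 with cisplatin, 6.40 with A0 and 6.93 in control. Of them, 283 were detected on all arrays of both drugs, 67 on 1 A0 array and 98 on neither A0 array. The 263 probes had median log2 signals of 6.50 with cisplatin, 7.69 with A0 and 7.20 in control. Of these, 199 were detected on all arrays of both drugs, 36 on 1 cisplatin array and 28 on neither cisplatin array. Where a drug's arrays did not both detect a probe, its signal there is at or near background. In both lists the control median lay between those of the drugs, a place that choosing the lists by the drug arrays favours.

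The 4 probes of the cisplatin response each differed between the drugs at 6 h. They were chosen by their cisplatin 6 h values, which enter this difference as well. GI_7019524-S was also above control with A0, at 7.83 ± 0.10 on the log2 scale (SD, n = 2), 2.46-fold above control (limma adjusted p = 0.0379). Cisplatin exceeded A0 by 1.68 (SE 0.32, limma adjusted p = 0.00562). GI_22035666-S was at 6.61 ± 0.17 with A0, 0.33 above control (limma adjusted p = 0.622), and 2.16 higher with cisplatin than with A0 (adjusted p = 0.00142). GI_31543542-S was at 8.51 ± 0.83 with A0, a difference of -0.91 from control (limma adjusted p = 0.158). Cisplatin differed from A0 there by -1.79 (limma adjusted p = 0.00676). GI_28610153-S was at 10.25 ± 0.10 with A0, a difference of -0.52 from control (limma adjusted p = 0.545). Here cisplatin differed from A0 by -1.97 (limma adjusted p = 0.0116). The 196 and 154 probes of the time course were a median of 0.32 and -0.44 from control with A0 at 6 h on the log2 scale, against 1.11 and -1.08 with cisplatin, by which they were chosen.

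The number of calls against control depended on the estimate of spread and on single arrays. Under the 8 alternatives that kept every array of the compared groups and tested all 472 probes, 217 of the called probes (118 higher and 99 lower) were called each time. Leaving out 1 array of the compared groups leaves a single array in that group and lowered the 473 calls over all tested probes. They numbered 106 (replicate 1) or 66 (replicate 2) when a cisplatin array was left out and 48 (replicate 1) or 32 (replicate 2) when a control array was. The 25 probes called in all 4 of these fits comprised 11 higher and 14 lower. Of these, 8 higher and 9 lower were detected on all 4 arrays, with median folds of 4.13 and 3.43.

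**Figure D5:**
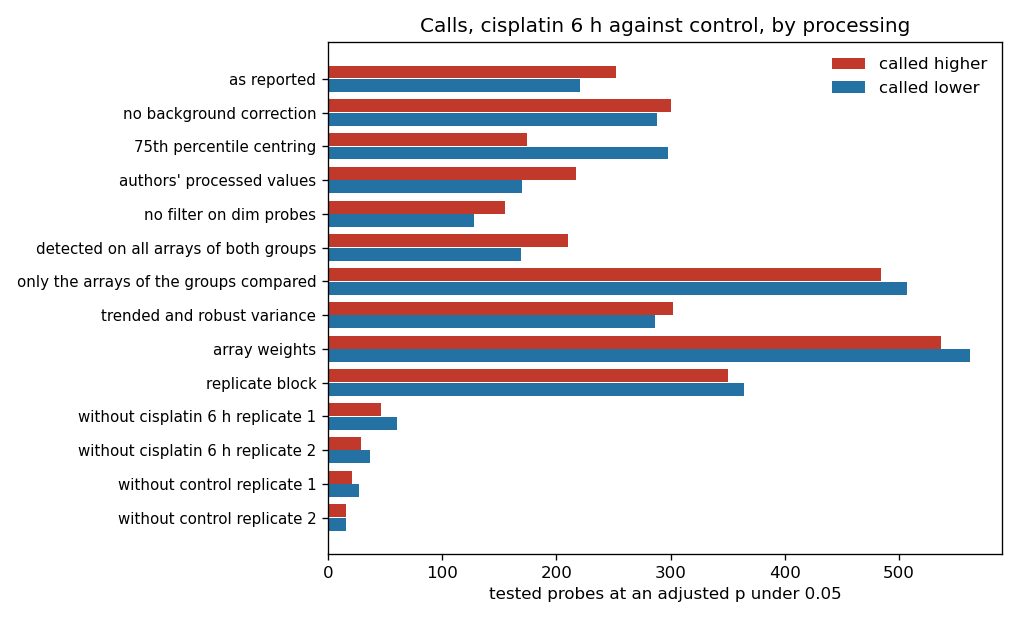
Number of tested probes called higher (red) and lower (blue) with cisplatin for 6 h than in control, as reported and under 13 alternatives. Bars start at 0. The counts run from 252 and 221 as reported to 537 and 562 with array weights and to 16 and 16 without control replicate 2.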

How the data were processed

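The authors deposited 1 file per array. Per the file headers it holds a mean bead intensity, linear and not normalised between arrays, the number of beads as a plain score, and a detection score, a fraction from 0 to 1. Per the submitters' processing notes the files were made with BeadStudio 1.5.1.3. The authors also deposited a table of processed intensity. Each column was a linear function of that array's own signal (slope 0.848 to 2.55), so the scale and direction are those of the array files, while the centring and normalisation method are unknown here. The column medians were 14.7 and 13.0 for cisplatin 6 h, 12.8 and 12.2 for control, and 10.9 to 21.3 over all 16.

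From the array files, signal was corrected and quantile normalised with neqc (background from the detection scores, offset 16, log2) in limma 3.58.1 under R 4.3.3. One model gave each of the 8 groups a mean over 16 arrays, with 8 residual and 5.7 prior degrees of freedom. The 9293 probes with a detection score of at least 0.99 on both arrays of any group were tested. The members and lists were chosen with earlier results of these data known. The rule for named probes took, as no gene could be named, the first 2 risers and 2 fallers among called probes detected on all 4 arrays without overlap. The 4 bacterial probes were left out. The number of arrays limits the precision. The test was run on simulated data with independent noise for each probe and array. That simulation held no effect shared by arrays of the same replicate number. Alternatives covered background, scaling, the deposited processed values, filters, the arrays fitted, array weights, the variance model, a replicate block and leaving out each array. No slide is named in the files used here, so none was fitted.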

Additional observations from a re-analysis of the deposited data

Results flagged for a closer look

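Groups of 2 arrays were not tested for outliers. Effects under the same contrast differed in direct tests. Cisplatin 6 h differed from A0 6 h at 756 tested probes, cisplatin 12 h from cisplatin 6 h at 69, and cisplatin 6 h from cisplatin 3 h at 9. The 4 probes described in full also differed between the drugs at 6 h, in limma's test adjusted over 9293 probes. The difference of cisplatin minus A0 was 1.68 for GI_7019524-S, 2.16 for GI_22035666-S, -1.79 for GI_31543542-S and -1.97 for GI_28610153-S on the log2 scale. The 4 probes were chosen by their cisplatin 6 h values, which enter these differences, so the differences are a description.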

How the results depend on the processing

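For cisplatin 6 h against control, 473 probes were called. The count was 283 with no filter on dim probes, 991 with a fit of the compared groups alone and 1099 with array weights. It was 714 with the replicate block, a term for the replicate number. It lay between 379 and 588 under the other alternatives that kept every array of the compared groups. For cisplatin 6 h against cisplatin 3 h, the 9 calls became 27 with no background correction, 3 with 75th percentile centring, 5 with no filter, 4 with probes detected on all arrays of both groups, 17 with trended and robust variance and 5 with array weights. With only the arrays compared limma gave 0, and 924 at an unadjusted p under 0.05. For cisplatin 12 h against cisplatin 6 h, the 69 calls became 32 with 75th percentile centring, 42 with probes detected on all arrays of both groups, 18 with only the arrays compared, 34 with array weights and 113 with the replicate block. For cisplatin 6 h against A0 6 h, the 756 calls became 207 with only the arrays compared. With 1 array left out the 4 counts ranged from 32 to 106, from 0 to 18, from 3 to 30 and from 178 to 567. The 0 came without cisplatin 6 h replicate 2, where 436 probes had an unadjusted p under 0.05. Such fits assume that the lone array varies like the other groups. They also have fewer samples, and the cause of these and the other moves was not tested.

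The labels do not say whether samples of the same replicate number are paired, and the main model did not pair them. The replicate differences of cisplatin 6 h and control correlated at 0.214 across probes. Over the 28 pairs of groups such correlations ran from -0.257 to 0.376, with 18 over 0.1. In every group replicate 1 detected fewer probes than replicate 2, and the cause was not tested. The replicate block changed none of the calls of the 4 probes described in full. The gene lists were not tested with all probes per gene or with another scaling, since no list entry was matched. Signal near background limits the 1106 probes that were not detected on all 4 arrays.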
